A study of Homo sapiens with 6 samples.

Results

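The response of human cardiomyocytes to alcohol, with or without losartan, was described from 6 RNA sequencing libraries, 4 of which came from exposed cells and 2 from untreated cells. The exposed libraries were chosen by their treatment labels alone. In 2 of them the hiPSC-CMs had received alcohol at 100 mM during 24 h, and in the other 2 the same alcohol dose and time together with losartan at 1 μM, called co-treated below. The 2 control libraries came from cells labelled as having no treatment, which the paper also calls vehicle. All 6 libraries share the cell line H9, an established human embryonic stem cell line, although the labels speak of hiPSC-CMs. The cells had been differentiated to contracting cardiomyocytes in culture, they came from 1 line, and no library with losartan alone was analysed here. All exposed cells received alcohol, and the co-treated cells received losartan as well, so a value common to the 4 exposed libraries is a value common to alcohol with and without losartan.

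Ethanol is oxidised to acetaldehyde and then to acetate, and heart muscle cells do this far more slowly than hepatocytes. Losartan blocks the angiotensin II type 1 receptor (AT1R), through which angiotensin II raises NADPH oxidase activity, growth signals and matrix production in the heart. Cardiomyocytes derived from stem cells beat in culture but remain immature, and still carry high levels of atrial natriuretic peptide and of actin isoforms that the adult ventricle has silenced. They make their own cholesterol through the mevalonate pathway. Its enzymes are switched on together by the transcription factor SREBP2 when membrane sterol is low, while oxysterols switch on the export pumps ABCA1 and ABCG1 through the LXR receptors.

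Levels are given as FPKM, the deposited estimate of reads per gene scaled by gene length and library size. Each library held between 4898287 and 5051448 expected counts in total. A gene listed at 0 is thus limited to 3 counts, or 0.594 to 0.612 CPM (counts over the library total), where only counting error is considered. Log2 fold changes, their standard errors (SE) and adjusted p-values come from edgeR over the 14926 genes tested, with exposed against control as the direction. The cardiomyocyte label was borne out by the markers in every library. Cardiac troponin T (TNNT2) was at 3194 to 3728 FPKM, while the 4 pluripotency markers summed to 9.08 to 16.05 FPKM.

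A small set of genes passed the test, and in all of them the exposed libraries stood apart from the controls. At an adjusted p under 0.05, 80 genes were called, which is 0.536% of the genes tested. Of these, 50 were higher (0.335%) and 30 were lower (0.201%) in the exposed cells. In each of the 80 genes the 4 exposed libraries lay on 1 side of both control libraries, judged on CPM scaled by TMM, a correction for the make-up of each library. Separation of this kind was found in 1767 genes above the controls (11.8%) and in 1691 genes below them (11.3%), or in 23.2% of all genes tested. With FPKM in place of this CPM the same counts were 2211 above and 1252 below, so the split between the directions depends on the scaling. At an unadjusted p under 0.05 the test gave 1940 genes (13.0%), 6.55% higher and 6.45% lower. The count of called genes rested on both controls. Without control replicate 1 only FSBP was called, and without control replicate 2 there were 3 called genes, of which FSBP and ATP6V1G2-DDX39B were among the 80. Without alcohol replicate 1 the count was 263, without co-treated replicate 1 it was 21, and without co-treated replicate 2 it was 12. No called gene reversed its direction in any of these fits. The exposed libraries of each already lay on 1 side of both controls, so leaving out a library could hardly reverse it. An exact rank-sum test of 2 against 4 libraries cannot give a two-sided p below 0.133 for a single gene. The calls thus depend on the dispersion that edgeR estimates from all genes together. The first principal component of the libraries, with 30.2% of the variance, placed the controls at -29.6 and -22.9 and the exposed libraries between -0.688 and 23.6, and alcohol replicate 1 lay nearest to the controls.

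**Figure D1:**
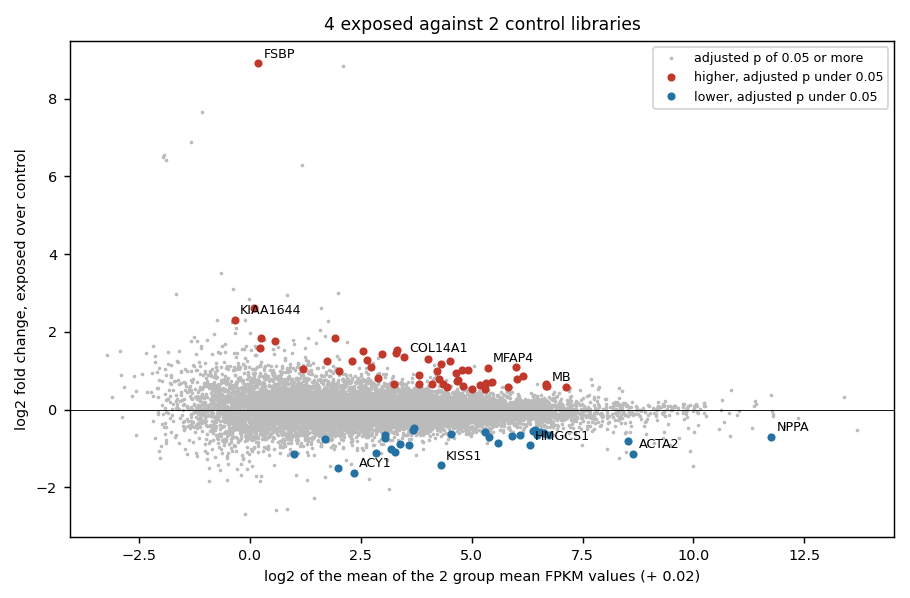
Each point is 1 of the 14926 genes tested, with the log2 of the mean of both group mean FPKM values, after a small constant was added, on the x axis and the log2 fold change of the 4 exposed over the 2 control libraries on the y axis. Red and blue points are the 50 genes called higher and the 30 called lower, and the grey points are the remaining genes. The called genes with the largest changes include weakly expressed genes, while strongly expressed ones such as ACTA2 and NPPA sit further to the right.

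The genes called with the largest rises covered matrix, ion channel, lipid and secreted proteins. Read-through genes and genes at 3 counts or fewer in every library of a group were not ranked. Among the ranked genes KIAA1644 had the largest rise, from 0.350 and 0.150 FPKM in the controls. It reached 1.21 and 1.10 FPKM with alcohol and 1.60 and 1.23 FPKM in co-treated cells, a log2 fold change of 2.31 (SE 0.38, adjusted p = 0.0239). The groups did not overlap, but the gene had fewer than 10 counts in a control library. FAM124A had 0.400 and 0.580 FPKM in the controls and 1.14 to 2.38 FPKM across the exposed libraries (log2 1.85, SE 0.37). SPTLC3, a subunit of serine palmitoyltransferase, the enzyme that starts sphingolipid synthesis, stood at 0.710 and 0.560 FPKM in the controls. With alcohol it was at 1.48 and 3.00 FPKM and in co-treated cells at 2.32 and 2.26 FPKM (log2 1.77, SE 0.35), so its lowest exposed library was alcohol replicate 1. UNC79, a subunit of the sodium leak channel complex, rose from 0.550 and 0.560 FPKM to 1.48 to 2.26 FPKM (log2 1.59, SE 0.26). FNDC5, the precursor of the secreted peptide irisin, was at 2.56 and 3.53 FPKM in control, 5.62 and 9.69 FPKM in alcohol and 8.61 and 10.7 FPKM in co-treated cells (log2 1.50, SE 0.27). HHATL, a relative of the hedgehog acyltransferase that is found in striated muscle, was at 5.40 and 4.78 FPKM in control and rose to 12.7 and 14.9 FPKM with alcohol and 17.8 and 12.7 FPKM in co-treated cells. Its log2 fold change was 1.46 (SE 0.20, adjusted p = 0.0100), and the 2 exposed groups overlapped each other but not the controls.

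SERPINI1, the protease inhibitor neuroserpin, was at 3.55 and 4.64 FPKM in control, 6.57 and 14.1 FPKM in alcohol and 14.3 and 11.2 FPKM in co-treated cells (log2 1.44, SE 0.29). Alcohol replicate 1 was again the exposed library nearest to the controls. COL14A1, a collagen on the surface of collagen fibrils, rose from 6.94 and 5.32 FPKM to 12.8 and 20.9 FPKM with alcohol and 15.1 and 15.8 FPKM in co-treated cells (log2 1.35, SE 0.17, adjusted p = 0.0100). DUSP15, a dual-specificity phosphatase, went from 9.36 and 7.97 FPKM to 17.4 to 32.4 FPKM (log2 1.31, SE 0.24). ABCA1, which loads cholesterol onto apolipoprotein A-I, stood at 3.89 and 3.28 FPKM in control, 5.99 and 9.24 FPKM in alcohol and 11.0 and 9.49 FPKM in co-treated cells (log2 1.27, SE 0.19). MFAP4, a glycoprotein of elastic fibres, had the lowest p among genes with counts in the controls. Its levels were 26.7 and 25.0 FPKM in control, 50.7 and 66.9 FPKM in alcohol and 54.1 and 53.6 FPKM in co-treated cells, a 2.11-fold rise with adjusted p = 0.00446.

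The falls were led by an enzyme and by a set of signalling and cytoskeletal genes. ACY1, an aminoacylase that frees amino acids from their acetylated form, fell from 9.40 and 5.75 FPKM in control to 2.03 to 2.82 FPKM (log2 -1.62, SE 0.28). The read-through transcript ABHD14A-ACY1, which holds the same exons, rose from 1.07 and 2.11 FPKM to 4.05 to 7.57 FPKM, and because reads can be assigned to either gene both values are uncertain. SPRY4, an inhibitor of receptor tyrosine kinase signalling, was at 6.65 and 4.83 FPKM in control, 3.66 and 1.82 FPKM in alcohol and 1.25 and 1.65 FPKM in co-treated cells (log2 -1.50, SE 0.30). KISS1, the precursor of the kisspeptins, fell from 28.3 and 28.7 FPKM to 10.4 and 16.2 FPKM with alcohol and 9.54 and 7.61 FPKM in co-treated cells (log2 -1.43, SE 0.24). In both genes the co-treated libraries were the lower pair. DRP2, a relative of dystrophin, had 2.89 and 2.43 FPKM in control and 0.980 to 1.61 FPKM in the exposed libraries. It was the called gene nearest to the threshold, at adjusted p = 0.0499, and ATP7B, a copper transporter, was the nearest gene beyond it at 0.0504.

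ACTA2, the smooth muscle actin that immature cardiomyocytes also carry, fell from 507 and 580.2 FPKM in control to 337 and 203 FPKM with alcohol and 248 and 224 FPKM in co-treated cells (log2 -1.14, SE 0.17, adjusted p = 0.0126). Alcohol replicate 1 was the highest exposed library and still lay below both controls. NGFR, the p75 neurotrophin receptor, was at 10.1 and 9.42 FPKM in control and at 2.97 to 6.66 FPKM in the exposed libraries (log2 -1.12, SE 0.23). FAM198B went from 10.6 and 15.3 FPKM to 4.73 to 7.41 FPKM, and FAM65B from 13.9 and 10.1 FPKM to 5.18 to 8.40 FPKM. DGKI, a diacylglycerol kinase, was at 14.7 and 16.2 FPKM in control, 10.9 and 8.97 FPKM in alcohol and 7.08 and 7.06 FPKM in co-treated cells (log2 -0.90, SE 0.16). HMGCS1 completes the 10 largest falls and is described with the sterol genes.

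**Figure D2:**
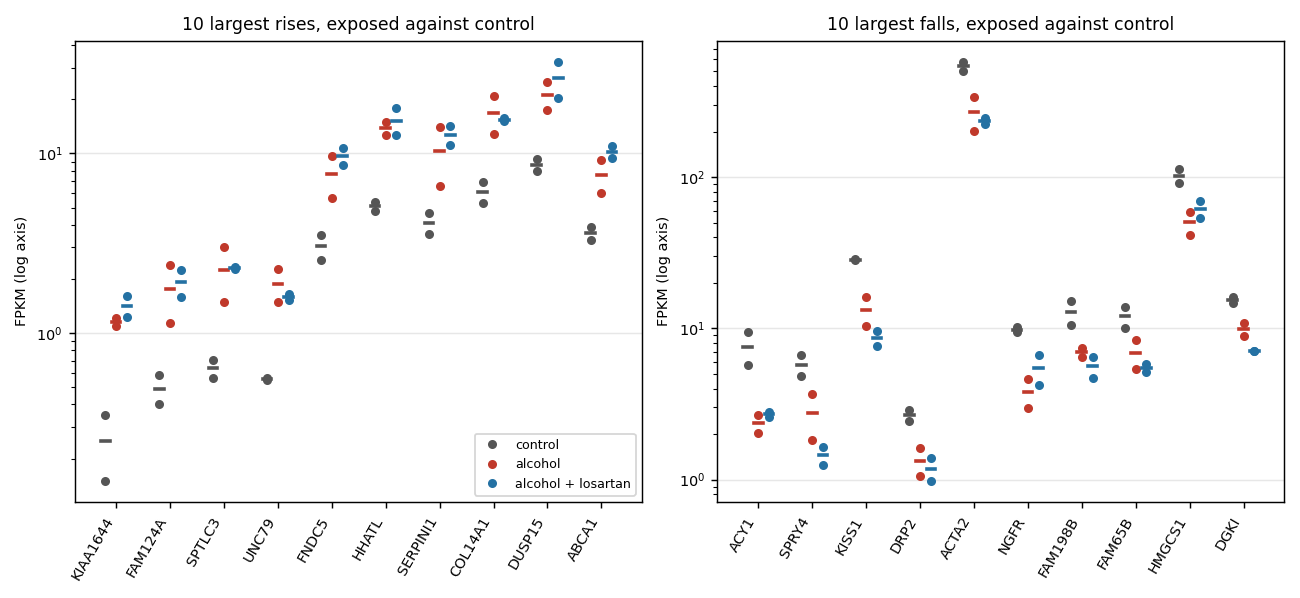
FPKM on a log axis for the 10 called genes with the largest rises and the 10 with the largest falls, with each point 1 library and the short lines the group means. The 4 exposed libraries lie above both controls in every gene of the first panel and below both in every gene of the other. The genes were chosen for such separation on CPM.

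Most of the remaining called genes are given by what they do, and were grouped and named after their values were seen. Several of them encode secreted and matrix proteins. TFPI2, a protease inhibitor laid down in the matrix, rose by 1.24 on the log2 scale, and COL6A1, a chain of collagen VI, by 0.69. ADAMTSL4 rose by 0.67, the protease ADAMTS19 by 0.80 and the chaperone clusterin (CLU) by 0.54. EMID1 rose from 3 counts in each control library to between 15 and 23 counts in the exposed libraries (adjusted p = 0.0467), too few for a fold to be given. Lower in the same class were the complement-activating protease MASP1, which fell by 0.86 on the log2 scale, and the guidance protein SLIT3, which fell by 0.47. MMP23A, a pseudogene related to the metalloprotease MMP23B, rose by 0.94. A few muscle genes were called higher. Myoglobin (MB), the oxygen store of muscle, was at 75.7 and 82.3 FPKM in control, 118 and 134 FPKM in alcohol and 121 and 126 FPKM in co-treated cells (log2 0.61, SE 0.10). KLHL41, which stabilises the sarcomere, rose by 0.67 on the log2 scale. PPP1R1A, an inhibitor of protein phosphatase 1, rose by 0.87, and EFNB3, a ligand of Eph receptors, by 0.71.

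Several lipid and detoxification enzymes rose as well. PHYH, which starts the breakdown of phytanic acid in peroxisomes, went from 13.2 and 10.4 FPKM in control to 19.0 and 28.3 FPKM with alcohol and 30.1 and 32.6 FPKM in co-treated cells (log2 1.17, SE 0.20). The acyl-CoA synthetase ACSF2 rose by 0.66 on the log2 scale, the ceramide synthase CERS5 by 0.67, the soluble epoxide hydrolase EPHX2 by 0.90, and the glutathione transferase GSTM2 by 0.78. PCYT2, which makes the activated ethanolamine for phosphatidylethanolamine, was lower and fell by 0.74. Among transporters, SLC44A2 (choline) rose by 1.11, SLC29A1 (adenosine) by 0.74 and SLC16A9 by 1.25, while SLC5A1, the sodium-coupled glucose transporter, fell by 0.88. Among RNA-binding proteins, HNRNPH1 fell by 0.57, HNRNPAB by 0.54 and HNRNPM by 0.67, and all 3 belong to the hnRNP proteins that bind nascent transcripts. HNRNPM was at 59.9 and 84.9 FPKM in control and 40.8 to 55.9 FPKM in the exposed libraries, so its groups came close.

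Several cytoskeletal and signalling genes were lower. TUBA1A, an alpha-tubulin, fell by 0.81 on the log2 scale, CCT2, a subunit of the chaperonin that folds actin and tubulin, by 0.67, NAV1 by 0.52 and the endophilin SH3GL3 by 0.63. ANXA1, an annexin, fell by 0.70, CRABP2, which carries retinoic acid to its receptor, by 0.65, NCR3LG1, a ligand of natural killer cells, by 0.76 and FAM84B by 0.58. Regulators among the rises were the transcription factor STAT6 (log2 0.57), the clock gene PER3 (1.05), the adaptor SHD (1.10) and RABGAP1L (0.60). The membrane proteins TMEM176A and TMEM176B, which are neighbours, rose by 0.58 and 0.60. COBLL1, CPNE5, PPDPF, FAM189A2 and R3HDM2 rose by between 0.53 and 0.98. Reads shared with similar or overlapping genes leave several calls uncertain. Among these are the family members GOLGA8R (log2 1.25), NBPF10 (-0.53) and HIST1H2AC (1.02), MMP23A, GSTM2 and TUBA1A with their close paralogs, the antisense gene C20orf166-AS1 (0.79), and the read-through gene ATP6V1G2-DDX39B (1.53). ACTA2 is another, with its close paralogs ACTC1 and ACTA1. Its antisense gene ACTA2-AS1 was lower as well, at a mean of 232.9 FPKM in control and 126.2 FPKM exposed (log2 -0.92). How reads were divided between ACTA2 and these genes was not tested. FSBP, which lies within RAD54B, had no counts in either control and 40.1 to 82.4 counts in the exposed libraries. Against the floor of 3 counts in each control it was at least 20.5-fold higher, where only counting error is considered. RAD54B was lower, at a mean of 5.83 FPKM in control and 3.09 FPKM exposed (log2 -1.29, adjusted p = 0.0661). How reads were divided between FSBP and RAD54B was not tested, so the call of FSBP is uncertain too and its fold is no firm bound.

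Most genes of the cholesterol pathway stood lower in the exposed cells. Its 20 genes were fixed as a list with earlier results of these data known. All 20 were tested, 2 were called and both were lower, and 15 lay below both controls in all 4 exposed libraries against 11.3% of all genes. The median log2 fold change of the list was -0.52 beside -0.00095 over all genes tested. Promoters are shown for the called gene HMGCS1 and for MVK, NSDHL and MSMO1, because they hold 2 to 5 copies of the CCAAT box. At this box the factor NF-Y binds next to SREBP2 in sterol promoters. The sequences and the motif were chosen after the values were seen. They are RefSeq windows on GRCh38.p14 from 250 bases before to 50 bases after the start of the gene, written 5′ to 3′ on the strand of the gene. Capitals mark CCAAT or its complement ATTGG. For a gene with several starts, the window with the most CCAAT boxes was shown. The windows are chr5:43313363-43313662 (minus strand) for HMGCS1, chr12:109573544-109573843 (plus strand) for MVK, chrX:152830813-152831112 (plus strand) for NSDHL and chr4:165327419-165327718 (plus strand) for MSMO1.
HMGCS1: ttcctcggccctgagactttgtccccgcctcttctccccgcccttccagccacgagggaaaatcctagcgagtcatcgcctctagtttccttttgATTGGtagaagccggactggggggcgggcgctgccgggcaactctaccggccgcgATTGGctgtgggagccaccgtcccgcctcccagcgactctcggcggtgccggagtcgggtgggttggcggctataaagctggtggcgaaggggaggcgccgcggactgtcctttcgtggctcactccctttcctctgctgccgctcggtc
MVK: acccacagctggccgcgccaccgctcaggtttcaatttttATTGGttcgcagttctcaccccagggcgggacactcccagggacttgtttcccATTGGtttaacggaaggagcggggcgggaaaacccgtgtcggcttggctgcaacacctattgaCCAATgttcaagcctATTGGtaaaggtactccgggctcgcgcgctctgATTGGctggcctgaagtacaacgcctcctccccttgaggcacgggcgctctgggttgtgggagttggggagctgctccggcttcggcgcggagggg
NSDHL: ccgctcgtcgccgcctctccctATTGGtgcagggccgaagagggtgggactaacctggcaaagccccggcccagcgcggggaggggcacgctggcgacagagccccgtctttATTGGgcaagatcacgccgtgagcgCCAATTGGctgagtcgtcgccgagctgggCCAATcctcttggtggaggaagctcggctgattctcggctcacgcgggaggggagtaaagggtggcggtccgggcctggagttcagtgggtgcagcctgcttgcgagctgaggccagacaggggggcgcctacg
MSMO1: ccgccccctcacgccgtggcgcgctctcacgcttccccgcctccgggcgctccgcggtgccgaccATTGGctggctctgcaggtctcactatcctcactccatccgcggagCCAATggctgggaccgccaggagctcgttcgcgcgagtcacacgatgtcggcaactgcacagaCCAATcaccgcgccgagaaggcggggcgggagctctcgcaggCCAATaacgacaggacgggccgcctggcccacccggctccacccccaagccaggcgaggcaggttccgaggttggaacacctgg

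In the windows shown HMGCS1 held 2 such boxes, MVK and NSDHL 5 each and MSMO1 4, each the highest count over the starts of the gene. In NSDHL, 2 of the 5 overlap within CCAATTGG, which reads the same on both strands. RefSeq windows were found for 15 of the 20 genes, with 20 windows in all because some genes have several starts. CCAAT on either strand was in 15 of these 20 windows (75%), and in 34.6% of all 35116 RefSeq windows, which are not limited to genes tested here. It was in 32.6% of the windows of genes called lower, 28.8% of those called higher and 45.5% of those of LXR targets. The core motif GGGCGG, searched on both strands, was in 18 of 20 windows against 45.0% of all. It was in 51.2% of the windows of genes called lower, 60.6% of those called higher and 63.6% of those of LXR targets. The sterol element TCACNCCAC was in none of the 20 and in 1.13% of all, and CACGTG was in 3 of 20 against 7.26%. A match is a description of the letters in these windows and does not show binding.

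HMGCS1, the cytosolic synthase that makes HMG-CoA and carries the first promoter above, fell from 92.0 and 113 FPKM in control to 59.1 and 41.6 FPKM with alcohol and 53.8 and 69.4 FPKM in co-treated cells. Its log2 fold change was -0.91 (SE 0.16, adjusted p = 0.0331), and the highest exposed library, co-treated replicate 2, was below the lower control. FDFT1, squalene synthase and the first enzyme committed to sterols, fell from 109.5 and 129 FPKM to 81.2 and 67.3 FPKM with alcohol and 81.3 and 91.5 FPKM in co-treated cells (log2 -0.60, SE 0.12, adjusted p = 0.0487). The remaining members of the list did not pass the test and were named after their values were seen. ACAT2, which joins 2 acetyl-CoA, was at 47.2 and 57.2 FPKM in control, 36.4 and 19.5 FPKM in alcohol and 28.7 and 31.3 FPKM in co-treated cells, with adjusted p = 0.0509. None of the exposed libraries reached the controls. Of the later enzymes, MSMO1 was at 66.8 and 83.4 FPKM in control and 35.4 to 55.1 FPKM in the exposed libraries, and NSDHL at 33.2 and 40.7 against 19.6 to 27.7 FPKM, where the values before "against" are those of the 2 controls. FDPS was at 103 and 133 FPKM in control, 73.2 and 62.2 FPKM in alcohol and 73.1 and 101 FPKM in co-treated cells, where replicate 2 came close to the lower control. At an unadjusted p under 0.05, 15 of the 20 genes of the list were lower (75%) and none higher, against 6.45% of all genes lower at that p.

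**Figure D3:**
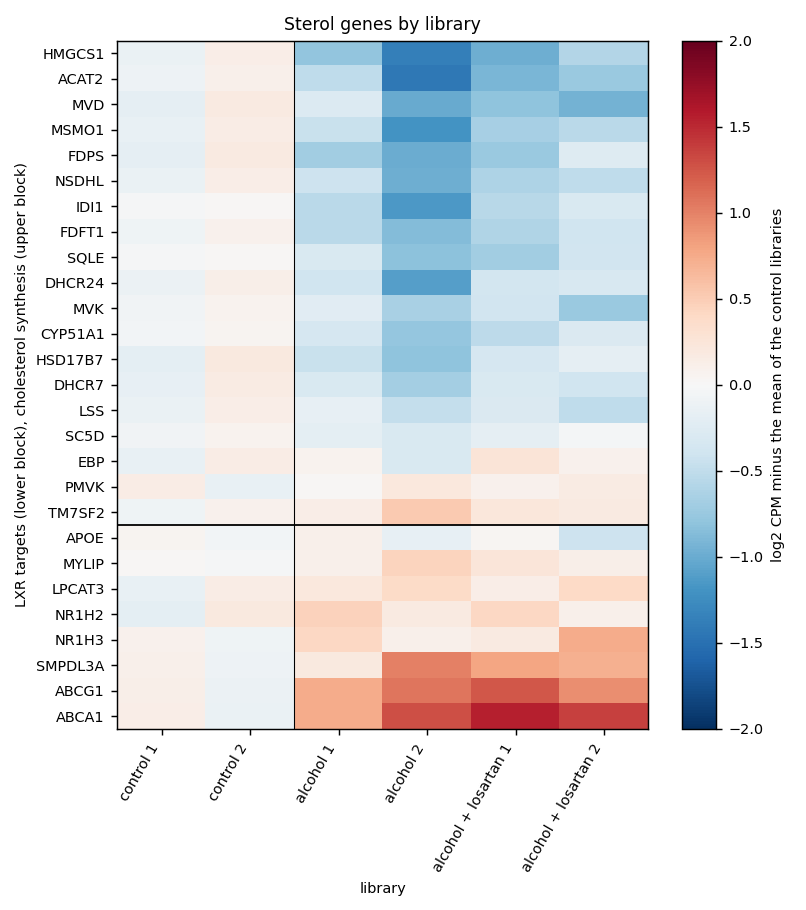
Colour gives log2 CPM minus the mean of the 2 control libraries for cholesterol synthesis genes (upper block) and LXR targets (lower block) in each of the 6 libraries. Most cholesterol genes are lower in all 4 exposed libraries, with alcohol replicate 2 the lowest column for many of them, while ABCA1 and ABCG1 are higher in all 4.

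Other lipid lists showed the same side in part. INSIG1, which holds SREBPs back, had a log2 fold change of -0.60 (SE 0.19) and SREBF2, the gene of SREBP2 itself, of -0.19 (SE 0.11). Neither passed the test. Of the 5 tested genes for SREBP2-driven uptake and feedback, 2 lay below both controls and 1, SCAP, above, with a median of -0.19. Over all genes tested 11.3% lay below and 11.8% above. In fatty acid synthesis, 6 of 12 genes lay below both controls, none above, and the median was -0.21. FASN, the fatty acid synthase, was at 22.6 and 25.9 FPKM in control and 13.1 to 18.8 FPKM in the exposed libraries (log2 -0.68, SE 0.14, adjusted p = 0.0521). ACLY, which makes cytosolic acetyl-CoA, was at 34.8 and 41.6 against 23.3 to 29.7 FPKM (adjusted p = 0.0706). SCD, the stearoyl-CoA desaturase, was at 81.4 and 88.8 FPKM in control, 54.1 and 35.0 FPKM in alcohol and 73.0 and 71.7 FPKM in co-treated cells, nearer to control in the co-treated pair. The LXR targets stood on the opposite side, with 5 of 8 above both controls against 11.8% of all genes, none below and a median of 0.35. ABCA1 was the called member. ABCG1, which exports cholesterol to HDL, was at 2.71 and 2.33 FPKM in control, 4.32 and 5.74 FPKM in alcohol and 6.41 and 5.05 FPKM in co-treated cells (log2 1.04, SE 0.23, adjusted p = 0.0556). APOE, another target of LXR, had a log2 fold change of -0.10 (SE 0.13) and overlapping groups.

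Among cardiac genes 1 natriuretic peptide was called lower and 1 ion channel subunit was called higher. NPPA, the atrial natriuretic peptide, fell from 3622 and 4799 FPKM in control to 2965 and 2364 FPKM with alcohol and 2375 and 2966 FPKM in co-treated cells (log2 -0.70, SE 0.14, adjusted p = 0.0497). All exposed libraries were below both controls, which differed from each other by more than the exposed libraries did. The call of NPPA was close to the threshold, and most alternatives did not call it, with log2 fold changes of -0.87 to -0.49. NPPB, the B-type peptide released under wall stress, was at 1721 and 1233 FPKM in control, 1079 and 301 FPKM in alcohol and 456 and 365 FPKM in co-treated cells (log2 -1.46, SE 0.36, adjusted p = 0.0955). ANKRD1, a stretch-responsive ankyrin protein, overlapped, with 1551 and 1062 FPKM in control and 455 to 1114 FPKM in the exposed libraries. Of 5 tested genes in this list 2 lay below both controls, none above, and the median was -0.70. KCNIP2, the subunit that sets the transient outward potassium current, rose from 11.1 and 13.8 FPKM to 18.4 and 34.8 FPKM with alcohol and 24.0 and 22.3 FPKM in co-treated cells (log2 1.01, SE 0.18, adjusted p = 0.0331). KCNQ1, which carries the slow delayed rectifier current, was at 6.78 and 6.53 FPKM in control and 9.68 to 11.1 FPKM in the exposed libraries (adjusted p = 0.0624). In the list of ion channels and gap junctions 6 of 17 genes lay above both controls and 1 below, with a median of 0.14, against 11.8% above and 11.3% below over all genes. By the sign of the log2 fold change alone, 9 of the 17 were higher.

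The sarcomere list had 5 of 26 genes below both controls against 11.3% of all genes, none above, no called gene and a median of -0.18. MYL7, the atrial regulatory light chain, was at 14512 and 16180.0 FPKM in control, 12612 and 9321 FPKM in alcohol and 10240.0 and 11847 FPKM in co-treated cells (log2 -0.52, SE 0.14, adjusted p = 0.114). MYL3 and the troponin TNNC1 had log2 fold changes of -0.50 and -0.47, and the skeletal actin ACTA1 ranged from 75.9 to 351 FPKM in the exposed libraries against 599 and 293 FPKM in control, with overlap. In calcium handling 2 of 14 genes lay above and 2 below, near the shares over all genes, with a median of 0.07. CASQ2, the calcium buffer of the sarcoplasmic reticulum, was at 10.7 and 7.15 FPKM in control and 4.50 to 5.48 FPKM in the exposed libraries (log2 -0.91, SE 0.20, adjusted p = 0.0535). RYR2, the calcium release channel, was at 61.5 and 58.1 against 66.5 to 77.4 FPKM. The 7 cardiomyocyte markers summed to 24066 to 24283 FPKM in the controls and to 17135 to 23226 FPKM in the exposed libraries, with the lowest sum in alcohol replicate 2, and none of them was at 0. MYL7 made up most of this sum, while the log2 fold changes of MYH7 and MYL2 were 0.22 and 0.51. In bulk RNA, fewer cells of a type and less RNA per cell cannot be told apart. The part of the lower sum in the results above was not tested.

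Markers of other cells that such cultures can hold stood on both sides of the controls. The 4 smooth muscle markers ACTA2, TAGLN, CNN1 and MYH11 summed to 1689.1 to 1926.5 FPKM in control and to 722.3 to 1451.2 FPKM in the exposed libraries. In the wider list 3 of 11 genes lay below both controls, none above, and the median was -0.25. Over all genes tested 11.3% lay below and 11.8% above, and the wider lists that follow stand beside the same shares. TAGLN, which binds actin filaments, was at 998 and 826 FPKM in control, 689 and 340.0 FPKM in alcohol and 431 and 532 FPKM in co-treated cells (adjusted p = 0.0708), while CNN1 overlapped, with 417 and 279 FPKM in control and 177 to 422 FPKM in the exposed libraries. The 7 fibroblast markers summed to 331.63 to 370.47 FPKM in control and to 358.19 to 399.85 FPKM in the exposed libraries, which overlap. In the fibroblast and matrix list 3 of 18 genes lay above and 1 below, with a median of -0.02. The called members were MFAP4 and COL14A1, and FN1, fibronectin, was the member below, at 161 and 183 FPKM in control and 122 to 147 FPKM in the exposed libraries. Endothelial markers (4 genes) summed to 4.65 to 4.92 FPKM in control and 6.16 to 8.96 FPKM in the exposed libraries, with most of this sum from KDR. The 3 epicardial markers went from 7.66 to 10.33 FPKM in control to 10.71 to 16.33 FPKM, with most of it TBX18. The 5 endoderm markers were at 35.87 to 37.88 FPKM in control and 45.17 to 47.64 FPKM in the exposed libraries, AFP and APOA1 making up most of the sum and FOXA2 being at 0 in both controls. The wider lists gave 1 of 6 endothelial genes above both controls (median -0.13), 1 of 4 epicardial genes above (0.02), 4 of 8 endoderm and liver genes above (0.17) and 0 of 6 pluripotency genes in either direction (0.06). Whether other cells account for any of the called genes was not tested.

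Energy genes outside the sterol pathway held no called member. In glycolysis 7 of 21 genes lay below both controls and 1, PFKM, above, with a median of -0.25. Over all genes tested 11.3% lay below and 11.8% above. HK1, the first enzyme of the pathway, was at 134 and 131 FPKM in control, 108 and 98.5 FPKM in alcohol and 106 and 101 FPKM in co-treated cells (log2 -0.40, SE 0.10, adjusted p = 0.0898). ENO1 was at 735 and 683 FPKM in control, 428 and 202 FPKM in alcohol and 509.6 and 439 FPKM in co-treated cells (adjusted p = 0.132). PGAM1 and TPI1 had log2 fold changes of -0.61 and -0.57, and in ENO1, PGAM1 and TPI1 alcohol replicate 2 was the lowest library by far. HIF-1 targets outside glycolysis gave 1 of 24 genes above, the MYC antagonist MXI1 at 13.7 and 11.5 FPKM in control and 15.9 to 21.6 FPKM in the exposed libraries, and 2 below, with a median of -0.11. The sign of that median turned under 2 of 13 alternatives. In fatty acid oxidation 3 of 19 genes lay above and 1 below, near the shares over all genes, with a median of 0.08. HADH was at 29.9 and 26.5 FPKM in control and 34.7 to 40.0 FPKM in the exposed libraries (adjusted p = 0.237).

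Genes tied to alcohol, angiotensin and oxidative stress stood on both sides of the controls in each list. No member of these lists passed the test. Over all genes tested 11.8% lay above both controls and 11.3% below. The NADPH oxidase list held 11.1% each way and the ethanol and acetaldehyde list 16.7% each way, near these shares. In ethanol and acetaldehyde oxidation 1 of 6 tested genes lay above, ALDH9A1, and 1 below, ALDH1B1, with a median of -0.01. ALDH1B1, a mitochondrial acetaldehyde dehydrogenase, was at 22.1 and 20.6 FPKM in control, 18.5 and 14.5 FPKM in alcohol and 15.6 and 14.2 FPKM in co-treated cells (log2 -0.49, SE 0.13, adjusted p = 0.121). Of the renin-angiotensin list 8 of 14 genes were tested, 3 lay above and 1 below, and the median was 0.17. AGT, the precursor of angiotensin, was at 17.0 and 20.0 FPKM in control and 23.0 to 25.5 FPKM in the exposed libraries (adjusted p = 0.161). Among 9 tested genes of the NADPH oxidase list 1 lay above, RAC2, and 1 below, NOX1, with a median of 0.19. NOX1 was at 1.31 and 2.13 FPKM in control and 0.770 to 0.980 FPKM in the exposed libraries, and RAC2 at 0.520 and 1.04 against 1.69 to 2.01 FPKM. NOX4 was at 0.330 to 0.760 FPKM over all 6 libraries. In the NRF2 and antioxidant list 5 of 20 genes lay above and 4 below, with a median of 0.09. MT1X, a metallothionein, was at 0.900 and 3.09 FPKM in control and 6.16 to 8.89 FPKM in the exposed libraries, and ferritin light chain (FTL) at 285 and 277 against 348 to 363 FPKM, while GCLM was at 3.62 and 3.31 against 2.30 to 3.16 FPKM.

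In the lists for p53, cell division and cell death, CDKN1A, the p53 target that halts the cell cycle, was the only called gene. It fell from 99.3 and 114 FPKM in control to 78.7 and 71.4 FPKM with alcohol and 62.7 and 65.6 FPKM in co-treated cells (log2 -0.66, SE 0.11, adjusted p = 0.0265). Of the 12 p53 targets 6 lay below both controls against 11.3% of all genes and 1, BTG2, above, with a median of -0.29. In DNA replication 6 of 19 genes lay below, none above, with a median of -0.28, and in mitosis 2 of 22 lay below, none above, with a median of -0.41. Over all genes tested 11.3% lay below and 11.8% above, so the count of separated mitosis genes is near the background. By the sign of the log2 fold change alone, all 22 mitosis genes were lower. At an unadjusted p under 0.05 by edgeR, 5 of the 22 were lower and none higher, against 6.45% of all genes lower at that p. The mitotic checkpoint kinase BUB1 was at 25.3 and 37.3 FPKM in control, 16.7 and 18.7 FPKM in alcohol and 25.7 and 24.7 FPKM in co-treated cells (adjusted p = 0.139), with overlap on the FPKM scale. The controls differed widely in such genes, and the median for mitosis turned sign under 1 of 13 alternatives. Proapoptotic genes gave 2 of 20 above and 4 below (median -0.08). BMF was at 6.27 and 8.71 FPKM in control and 10.1 to 15.0 FPKM in the exposed libraries (adjusted p = 0.0756), and the death receptor TNFRSF10B at 24.4 and 24.5 against 17.5 to 22.1 FPKM. Antiapoptotic genes gave 2 of 8 above and 1 below (median -0.07), with BCL2L1 at 31.3 and 34.4 against 25.7 to 28.3 FPKM.

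Heat shock proteins gave 4 of 13 below and none above (median -0.13), where 11.3% of all genes tested lay below and 11.8% above. HSP90AA1 was at 368 and 362 FPKM in control and 245 to 339 FPKM in the exposed libraries. In the ATF4 and amino acid stress list 3 of 17 lay above and 4 below (median 0.00). DDIT3, which encodes CHOP, was at 8.20 and 8.26 FPKM in control and 12.1 to 15.9 FPKM in the exposed libraries, and the amino acid carrier SLC7A5 at 7.65 and 6.32 against 3.86 to 5.50 FPKM, so members of this list stood on both sides. The unfolded protein response of the endoplasmic reticulum gave 2 of 16 above and 1 below (median -0.02), near the shares over all genes. Immediate early genes gave 1 of 12 below, KLF2, and none above (median 0.03). In the interferon list 3 of 10 lay above and none below (median -0.01). BST2, the tetherin that holds budding virus at the membrane, was its called member and rose from 18.7 and 17.2 FPKM to 30.8 and 49.0 FPKM with alcohol and 34.0 and 35.2 FPKM in co-treated cells (log2 1.01, SE 0.18, adjusted p = 0.0331). IFIT1 was at 5.54 and 7.49 FPKM in control and 9.15 to 13.1 FPKM in the exposed libraries (adjusted p = 0.108). TGF-beta ligands and targets gave 2 of 13 above and 1 below (median -0.18), also near those shares. LTBP2 was at 1.12 and 1.15 against 1.81 to 2.24 FPKM and TGFBI at 9.29 and 10.5 against 6.29 to 7.40 FPKM.

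**Figure D4:**
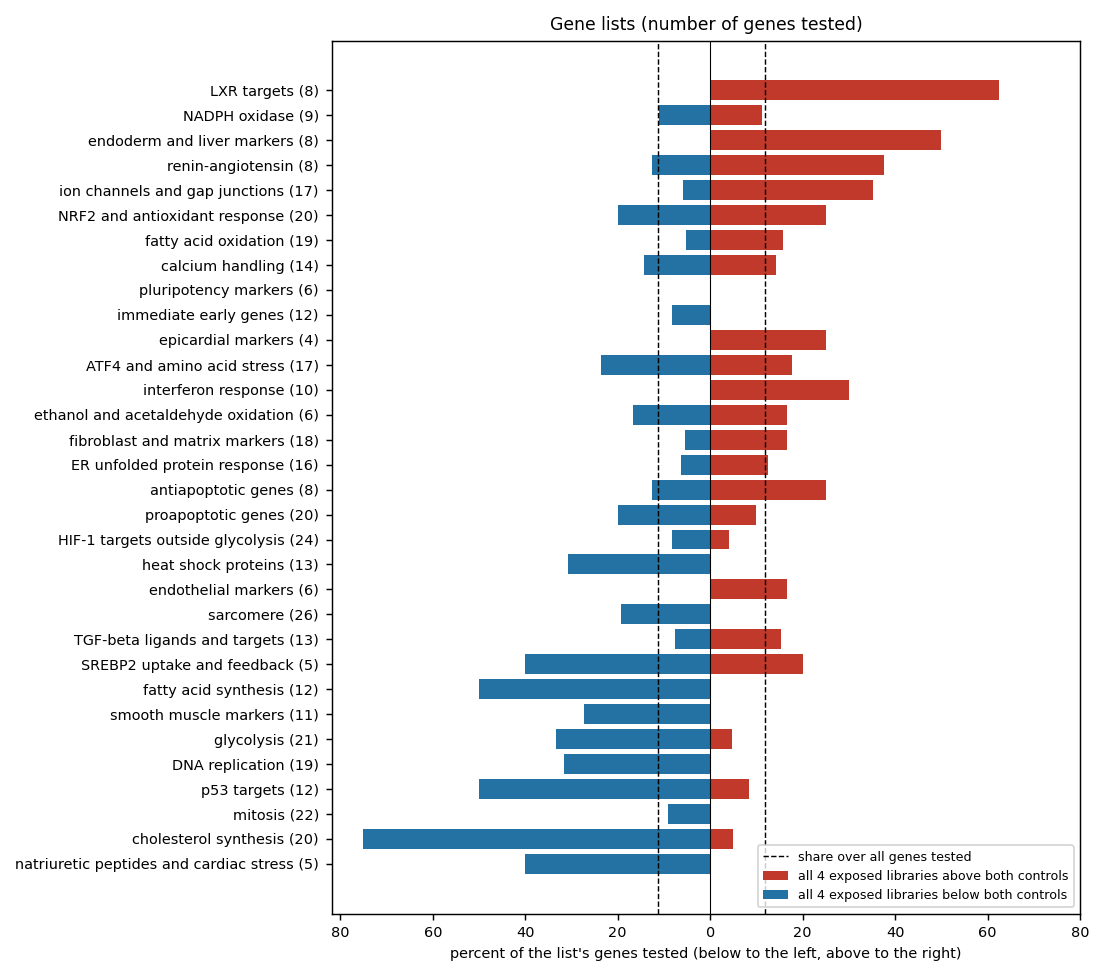
For each of the 32 lists, bars give the percent of the genes tested whose 4 exposed libraries all lie above (red, to the right) or below (blue, to the left) both controls, and dashed lines give the shares over all genes, 11.8% and 11.3%. Cholesterol synthesis has the longest bar to the left, at 75%, and the LXR targets the longest to the right, at 62.5%.

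Over the 32 lists 429 genes were tested, and 10 of these were called, in 8 lists, where 0.536% of all genes tested were called. They are HMGCS1, FDFT1, ABCA1, NPPA, KCNIP2, ACTA2, MFAP4, COL14A1, CDKN1A and BST2, each given above, and the other called genes belong to none of the lists.

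The values of both exposed groups were also set side by side, against the same 2 controls. With a mean for each of the 3 groups, alcohol alone gave 10 called genes (0.0670%) and the co-treatment 54 (0.362%), and the difference between these counts is not a test. The direct comparison of co-treated with alcohol cells called 2 genes (0.0134%). It gave 829 of the 14926 genes tested at an unadjusted p under 0.05. None of the 80 genes differed between the exposed groups at an adjusted p under 0.05, and 7 did at an unadjusted p under 0.05. The 80 were called by a fit that pools both exposed groups, so a gene that differs between them was less likely to be among the 80. The difference, co-treated minus alcohol, ranged from -0.91 to 0.51 on the log2 scale, with a median size of 0.14. The co-treated libraries were further from control in 47 genes and the alcohol libraries in 33. The lowest difference was that of SPRY4, with log2 fold changes of -1.11 in alcohol and -2.03 in co-treated cells. KISS1 had -1.15 and -1.78, DGKI -0.68 and -1.17, TFPI2 1.03 and 1.43, ABCA1 1.04 and 1.47, PHYH 0.95 and 1.36, and SLC44A2 0.91 and 1.28. In these 7 genes, which are those with an unadjusted p under 0.05, the co-treated cells stood further from control. Nearer to control in co-treated cells were NGFR (-1.40 and -0.89) and HMGCS1 (-1.05 and -0.78), while ACTA2 had -1.04 and -1.25, MFAP4 1.14 and 1.01, and NPPA -0.69 and -0.70. A p that misses the threshold with 2 libraries a group does not show that the groups were alike.

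**Figure D5:**
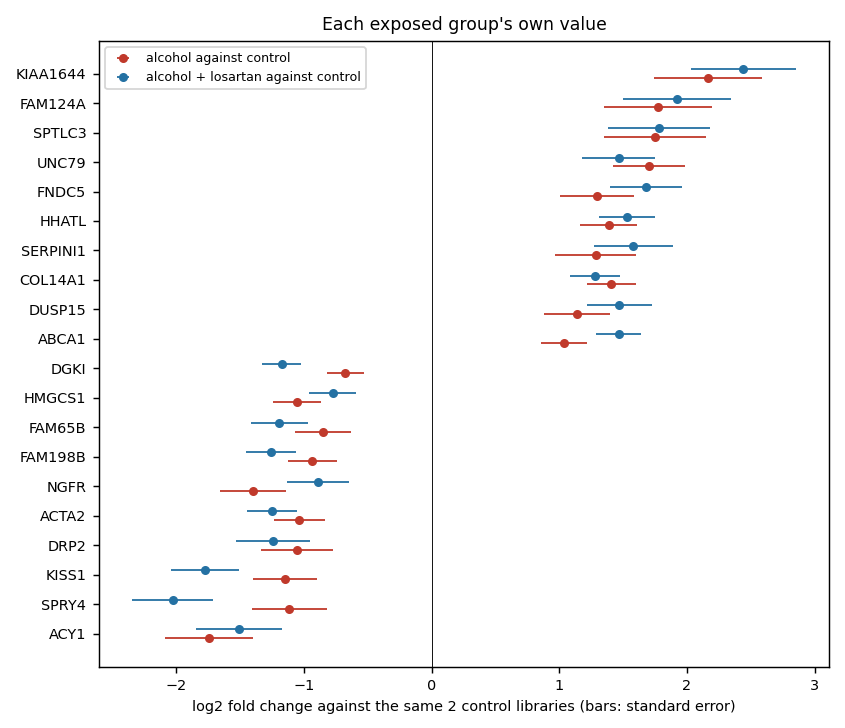
Log2 fold change against the same 2 control libraries for the genes with the largest changes, in alcohol (red) and in co-treated cells (blue), with bars for the standard error. Both groups lie on the same side of 0 in every gene, which the choice of genes without overlap made nearly certain. In most genes the bars of the groups overlap.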

How the data were processed

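The 6 libraries of H9-derived cardiomyocytes were grouped by the treatment in their labels: 4 exposed (2 alcohol, 2 alcohol with losartan) and 2 control. The labels do not say that replicates came from separate cultures, so p-values measure only the spread between these libraries, which may be technical. For each library, expected counts and FPKM of every gene were deposited by the authors. Of the expected counts above 0, 33.9% were not whole numbers (tolerance 0.005), and they were rounded for the count tests. The submitters' processing notes name HISAT2 2.0.4, Bowtie2 2.2.5, RSEM 1.2.12 and hg38, without their roles. Whether counting used strand is not given in the sources used here. The series table lists 21134 genes, and 21036 of their IDs were found in RefSeq.

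Exposed and control libraries were compared with the quasi-likelihood F test of edgeR 4.0.16 (R 4.3.3), two-sided, after filterByExpr and TMM scaling, with Benjamini-Hochberg adjustment at 0.05 over 14926 genes, and 1 mean for the 4 exposed and 1 for the 2 control libraries. A fit with 3 group means gave each exposed group against control and their difference. Standard errors are the log2 fold change over the square root of F. The gene lists and the comparison were chosen with earlier results of these data known, so lists are described by counts and medians beside those of all genes and were not tested as sets. Named by rule were the 10 largest rises and 10 largest falls among called genes without overlap, leaving out read-through genes, short RNA genes and genes at 3 counts or fewer in a whole group, then each list's called members, otherwise up to 4 members with the lowest p, and the cell type markers. Other genes were named after their values were seen, and a few genes, though counted, are not reported here by name. Same-numbered replicates did not deviate together (correlations of 0.114, -0.0162 and 0.0412 between pairs of groups), so they were not paired.

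Alternatives were DESeq2 1.42.0, limma 3.58.1 on log2(FPKM + 1) and log2(FPKM + 0.1), RLE size factors, no filter, at least 10 counts in every library, 3 group means, the replicate block, each exposed group alone, FPKM for separation, and each library left out in turn. The edgeR fit was tested on simulated data before use. Promoter motifs were read from RefSeq windows of GRCh38.p14.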

Additional observations from a re-analysis of the deposited data

Results flagged for a closer look

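Among the 80 called genes, 6 had 1 exposed library far from the other 3 on the log2 CPM scale, and chance alone flags about 1 in 20 such groups. The measure is the gap to the nearest library over the range of all 4. MFAP4 was highest in alcohol replicate 2, at 120.93 CPM against 96.96 to 100.21 CPM in the others (ratio 0.851). HNRNPH1 was highest in alcohol replicate 1, at 195.74 against 165.23 to 166.38 CPM (0.959), and so was HNRNPAB, at 142.51 against 114.56 to 117.31 CPM (0.891). In both of these genes, which were called lower, that library stood nearest to the controls. GOLGA8R was highest in co-treated replicate 2, at 27.44 against 23.12 to 23.63 CPM (0.872). COL6A1 and PPDPF were lowest in the same library. COL6A1 was at 171.59 against 220.64 to 229.22 CPM (0.868), and PPDPF at 112.94 against 132.99 to 136.15 CPM (0.875).

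Between the exposed groups 2 read-through genes differed by edgeR's test. HSPE1-MOB4 was higher in co-treated than in alcohol cells, with a fitted log2 difference of 9.29. Its counts were 70 and 62 in control, 0 and 0 in alcohol, and 39 and 118 in co-treated cells. JMJD7-PLA2G4B was lower in co-treated cells, with a fitted log2 difference of -9.95 and counts of 82 and 88 in control, 126 and 122 in alcohol, and 0 and 0 in co-treated cells. Fitted values against groups with no counts depend on the prior count and are no bound. Both transcripts share exons with the genes they join, and how reads were divided between them was not tested. Where every library had to hold 10 counts or more, neither gene was tested and 0 genes were called by edgeR, with 778 at an unadjusted p under 0.05.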

How the results depend on the processing

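The direction of each called gene was the same under all alternatives tried, which its separation from both controls made nearly certain. The number of calls depended on the tool, the filter and the libraries. Against 80 calls in the reported fit, edgeR with RLE factors gave 71, all among the 80, and 3 group means gave 83, with 67 of the 80 among them. DESeq2 gave 214, limma gave 9 on log2(FPKM + 1) and 10 on log2(FPKM + 0.1), no expression filter 212, and at least 10 counts in every library 128. All calls of limma were higher, so it called none of the 30 falls. The alcohol libraries alone against control gave 3, with 1 of the 80 among them. The co-treated libraries alone gave 154, with 61 of the 80 among them. Leaving out 1 library gave between 1 (without control replicate 1) and 263 (without alcohol replicate 1), where a lone control is assumed to vary like the exposed libraries. The replicate block gave 145 calls, 82 higher and 63 lower, and all 80 genes were among them, but the replicate numbers did not pair the samples. For the difference between the exposed groups, with 2 calls, no filter gave 1, the filter of 10 counts 0, the replicate block 5, and leaving out 1 library between 1 and 22. Genes above both controls numbered 2173 to 3615 and genes below 2087 to 3307 when 1 library was left out, since fewer libraries had to be separated. The median of all genes moved by less than 0.1 under every setting. DESeq2 gave no adjusted p for 1 of the 80 genes, and 3 of the 80 were removed by the filter of 10 counts. The medians of several lists near 0 changed sign, among them fibroblast and matrix markers, the unfolded protein response and the ATF4 list under 5 of 13 alternatives each. Values near the floor of 3 counts are imprecise, and 2 called genes were at or under it in a whole group.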
